A study of Homo sapiens with 6 samples.

Results

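The genes described here are 32 protein-coding genes of G2 and mitosis, taken from a fixed list of symbols by their known roles in the cell cycle. The list sets no threshold on measured values, but it was drawn up with earlier results of these data known. All 32 were found among the 53712 gene lines of the count table, and all 32 had enough reads to be tested beside 16873 genes in all. They were measured in H9 cells, an established line of human embryonic stem cells, grown in the medium PXGL, which holds such cells in a naive state. Cells of 1 group received SO-L1, a sense oligonucleotide to the LINE-1 retrotransposon, and served as control. Cells of the other group received ASO-L1, the antisense oligonucleotide. Each oligonucleotide was given at 25 nM by lipid transfection, and poly(A) RNA was sequenced 48 hours later from unsorted cells. Both groups also received trans-ISRIB at 0.7 µM, which counters the integrated stress response, and emricasan at 5 µM and Y-27632 at 10 µM, inhibitors of caspases and of ROCK, all removed after 24 hours. Each group had 3 libraries, numbered 1 to 3. The labels do not say that they came from separate cultures, and each p-value therefore reflects only how far these libraries spread, which may be technical. All cells are of a single line, and transfected cells were not separated from cells that took up no oligonucleotide.

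In G2 the kinase CDK1 gathers its cyclin partners, and its activation by loss of inhibitory phosphates starts mitosis. Aurora and Polo-like kinases then build the spindle, kinetochores join chromosomes to its microtubules, and the spindle checkpoint holds back the anaphase-promoting complex until every chromosome is attached. The RNAs of most of these proteins are made in late S phase and G2, under B-MYB and FOXM1 acting with the MuvB complex and under the CCAAT-binding factor NF-Y. Embryonic stem cells divide quickly and carry high levels of these RNAs. In unsorted bulk RNA, a change in the share of cells that are in G2 or mitosis and a change in RNA per cell cannot be told apart.

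The promoters of this gene set are known for 2 short elements. One is the cell cycle homology region, which MuvB binds, and the other is CCAAT. The region was searched only as TTTGAA or TTCGAA, and other forms of it were not searched. RefSeq promoter sequences (build GRCh38.p14, 250 bases before to 50 after the start) were matched for 27 of the 32 genes, and AURKA, BIRC5, TTK, TPX2 and UBE2C were not matched. TTTGAA or TTCGAA, read on both strands, was present for 21 of the 27 (77.8%), against 15.4% of the 10930 tested genes with a sequence. CCAAT was present for 21 of the 27 (77.8%), against 42.7%, and both elements for 17 (63.0%), against 6.44%. The sequences below are the 150 bases before the start of 5 genes, 5′ to 3′ on the gene's own strand. Matches to the searched strings on either strand are in capitals. They are shown because CDCA8, PLK1, CCNB2 and HMMR share the elements although HMMR went the other way from the rest. KIF2C is shown because it rose with none of the searched strings in its window.
CDCA8, chr1:37692366-37692515, plus strand: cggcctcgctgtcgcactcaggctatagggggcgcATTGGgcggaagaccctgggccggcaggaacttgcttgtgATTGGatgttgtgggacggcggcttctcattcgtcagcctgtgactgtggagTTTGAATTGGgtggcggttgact
PLK1, chr16:23678739-23678888, plus strand: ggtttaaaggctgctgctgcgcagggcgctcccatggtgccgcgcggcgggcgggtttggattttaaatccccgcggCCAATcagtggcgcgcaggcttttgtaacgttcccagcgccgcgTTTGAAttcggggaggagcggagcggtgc
CCNB2, chr15:59104996-59105145, plus strand: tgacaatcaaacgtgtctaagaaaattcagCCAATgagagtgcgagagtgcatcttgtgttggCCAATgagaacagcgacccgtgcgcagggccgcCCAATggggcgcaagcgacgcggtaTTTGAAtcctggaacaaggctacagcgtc
HMMR, chr5:163460482-163460631, plus strand: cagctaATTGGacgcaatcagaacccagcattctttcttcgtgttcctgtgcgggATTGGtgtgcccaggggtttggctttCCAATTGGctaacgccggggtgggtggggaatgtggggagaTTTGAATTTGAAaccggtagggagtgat
KIF2C, chr1:44739687-44739836, plus strand: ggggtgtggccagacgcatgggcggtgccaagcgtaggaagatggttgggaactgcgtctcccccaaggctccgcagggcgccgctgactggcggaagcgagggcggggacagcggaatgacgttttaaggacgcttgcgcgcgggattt
Where 2 elements touch or overlap, as in CDCA8 and HMMR, their capitals run together.

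Most of the 32 genes were higher 48 hours after ASO-L1, by modest amounts. The count was 18 higher and 3 lower, with 11 not passing the test, at an adjusted p under 0.05 (edgeR, quasi-likelihood test, adjusted after Benjamini-Hochberg over all tested genes). Of all tested genes 18.0% were called higher and 15.7% lower. The increases ran from 1.13-fold for CENPF to 1.63-fold for CDCA8, and no member changed by 2-fold or more. The median log2 fold change of the 32 genes was 0.20, against -0.01 over all tested genes. Every ASO-L1 library exceeded every control library for 19 members (25.8% of tested genes) and below them for 3 (25.1%), and the groups overlapped for 10. With the replicate number as a block the counts were 19 higher and 5 lower, where 23.3% and 22.5% of tested genes were called.

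**Figure D1:**
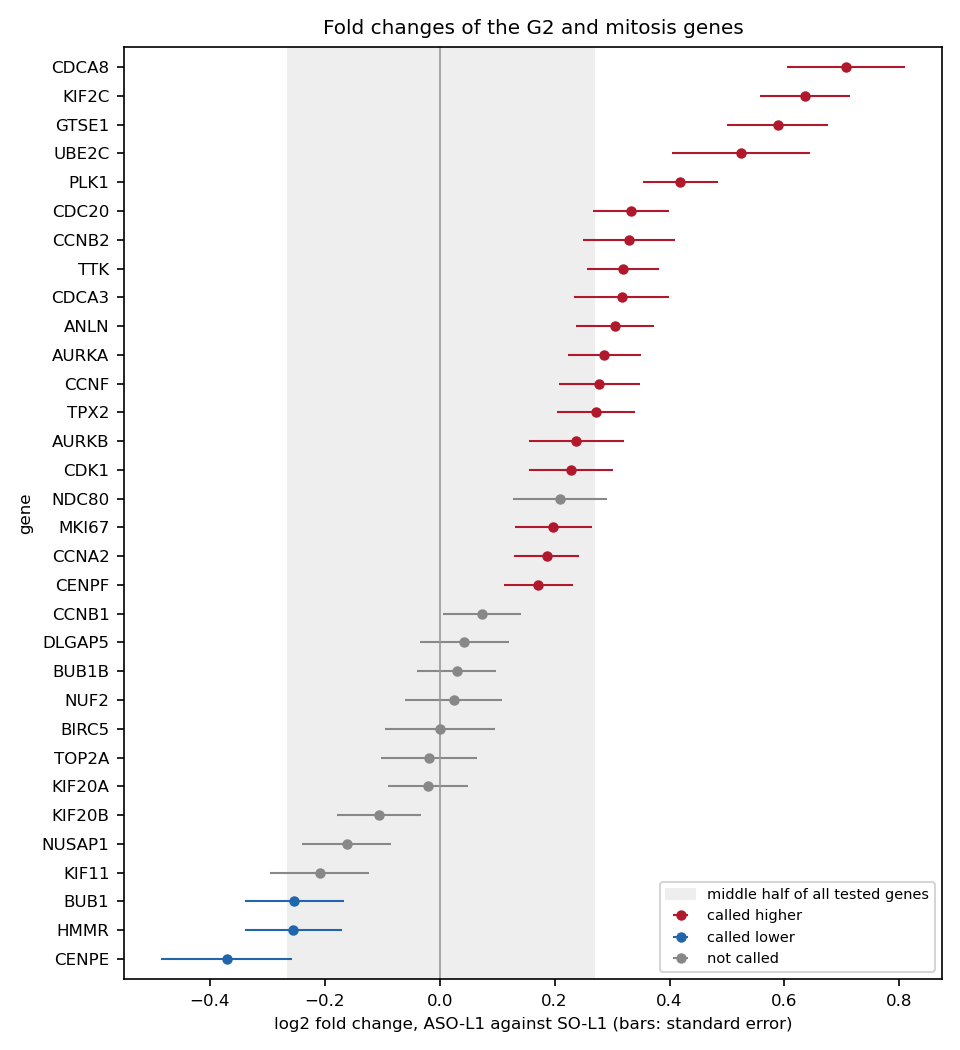
Log2 fold change of each of the 32 genes, ASO-L1 against SO-L1 (points) with its standard error (bars), ordered by size; red points are called higher, blue lower and grey not called, and the pale band is the interquartile range of all tested genes. CDCA8 (0.71) and KIF2C (0.64) stand at the top and CENPE (-0.37) at the bottom.

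Library totals ran from 23330875 to 31164287 reads, and the 32 genes had between 681 and 12901 reads each in any library. Together they took 0.464% to 0.507% of all reads in the SO-L1 libraries and 0.539% to 0.546% in the ASO-L1 libraries. Within a replicate number, the median log2 difference over the members was 0.16, 0.31 and 0.13 for numbers 1, 2 and 3. SO-L1 replicate 2 was the lowest control library for 29 of the 32 genes, and number 2 had the largest difference for 26. ASO-L1 replicate 2 also stood apart: it was the highest ASO-L1 library for 13 of the 18 increases. Over tested genes the chi-square statistic, divided by its degrees of freedom, was 18.5 and 24.4 when its counts were compared with ASO-L1 replicates 1 and 3, against 2.05 between those libraries. The difference was above 0 at all 3 numbers for 19 genes and below 0 at all 3 for 7. Mitochondrial transcripts made up 3.11% to 3.94% of SO-L1 reads and 3.51% to 3.97% of ASO-L1 reads.

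**Figure D2:**
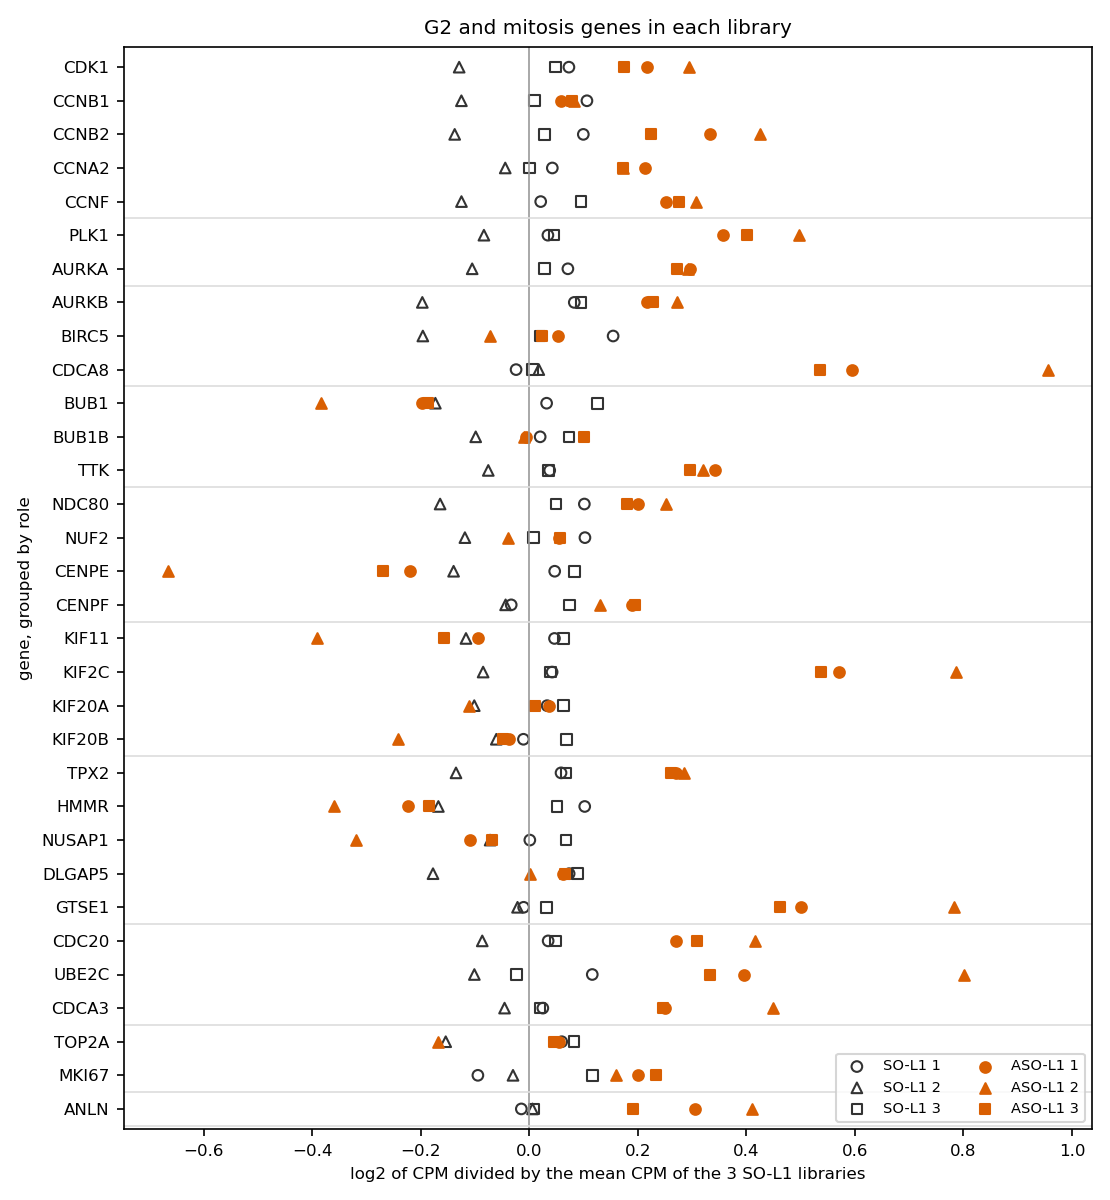
Each gene's level in each library, as log2 of its CPM divided by the mean CPM of the 3 SO-L1 libraries, with open symbols for SO-L1 and filled ones for ASO-L1 and the symbol shape giving the replicate number. For CDCA8, KIF2C and GTSE1 the filled symbols lie clear of the open ones, while for TOP2A and KIF20A they mix.

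CDK1 and most of the cyclins in the set rose, and CCNB1, the cyclin with the highest level per length, did not pass the test. CDK1, the kinase that drives entry into mitosis, had 96.0, 83.5 and 94.4 CPM in SO-L1 libraries 1 to 3 and 106, 112 and 103 in ASO-L1 libraries 1 to 3, where CPM are counts per 1000000 library reads after TMM scaling. All ASO-L1 values were above the control values, and control library 2 was the lowest. The log2 fold change was 0.23 ± 0.07 (SE, 3 libraries against 3, adjusted p = 0.0349). CCNB2, a B-type cyclin bound to the Golgi, went from 100.5, 85.2 and 95.6 to 118, 126 and 109.6 CPM (0.33 ± 0.08, adjusted p = 0.0118), with no overlap. CCNA2, the cyclin that partners CDK2 in S phase and CDK1 in G2, had 215, 203 and 209 CPM in SO-L1 and 242, 236 and 236 in ASO-L1 (0.19 ± 0.06, adjusted p = 0.0291). Its libraries were tight in both groups and did not overlap. CCNF, whose F-box targets proteins for destruction in G2, went from 89.9, 81.2 and 94.6 to 106, 109.5 and 107 CPM (0.28 ± 0.07, adjusted p = 0.0141).

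CCNB1, the main mitotic cyclin, had 395, 337 and 369.7 CPM in SO-L1 and 383, 389 and 388 in ASO-L1. The ASO-L1 values fell inside the control range, with a log2 difference of 0.07 ± 0.07 (adjusted p = 0.426). Per kilobase of exon it was the highest of the 32 genes, at 169 CPM per kilobase in SO-L1, and CCNB2 stood at 34.8 on the same scale. The call of CDK1 was lost without any single SO-L1 library or without ASO-L1 replicate 1 (adjusted p from 0.0583 to 0.112) and without normalisation factors (0.0546). That of CCNA2 was lost without any single library but ASO-L1 replicate 2 (0.0514 to 0.105), with no filter (0.101) and without factors (0.0615), and that of CCNF without SO-L1 replicate 1 (0.0501).

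Both kinases that ready the cell and its centrosomes for division rose. PLK1, Polo-like kinase 1, which switches on CDK1 and matures centrosomes, had 219, 201 and 220.2 CPM in SO-L1 and 273, 301 and 282 in ASO-L1. The groups stood well apart, with the lowest treated library above the highest control by more than the range of the controls, and the log2 fold change was 0.42 ± 0.06 (adjusted p = 0.00225). AURKA, the centrosomal Aurora kinase that activates PLK1, went from 205, 182 and 199 to 239.9, 239 and 236 CPM (0.29 ± 0.06, adjusted p = 0.00778). Neither call was lost when any 1 library was left out.

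Members of the chromosomal passenger complex, which corrects faulty attachments at centromeres and then guides cytokinesis, moved unequally. CDCA8, also called borealin, had the largest increase of the 32 genes, from 60.6, 62.3 and 61.9 CPM in SO-L1 to 92.9, 119 and 89.3 in ASO-L1. The control libraries were nearly alike, and ASO-L1 replicate 2 was the highest. Its log2 fold change was 0.71 ± 0.10 (adjusted p = 0.00200). AURKB, the kinase of the complex, went from 104.4, 86.0 and 105 to 114, 119 and 115 CPM (0.24 ± 0.08, adjusted p = 0.0467), a call that was lost without any 1 of the 6 libraries (0.0589 to 0.129) and without factors (0.0669). BIRC5, or survivin, which brings the complex to the centromere, had 43.7, 34.3 and 39.8 CPM in SO-L1 and 40.7, 37.3 and 39.9 in ASO-L1, all inside the control range, with a log2 difference of 0.00 ± 0.10 (adjusted p = 0.995).

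The checkpoint kinases went in opposite directions. TTK, also known as MPS1, which starts checkpoint signalling at unattached kinetochores, rose from 101, 93.7 and 101 to 125, 123 and 121 CPM (0.32 ± 0.06, adjusted p = 0.00468). BUB1, which TTK helps bring to kinetochores, fell from 235, 204 and 251 CPM in SO-L1 to 201, 176 and 202 in ASO-L1 (-0.25 ± 0.09, adjusted p = 0.0439). For TTK the ASO-L1 libraries all lay above the controls, and for BUB1 they all lay below, though SO-L1 replicate 2 stood close to ASO-L1 replicates 1 and 3. BUB1B, the checkpoint protein BUBR1 that binds CDC20, overlapped the controls (0.03 ± 0.07, adjusted p = 0.764). The call of BUB1 was lost without SO-L1 replicate 1 (0.135) or 3 (0.185) and without ASO-L1 replicate 1 (0.0834) or 2 (0.0783).

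Among kinetochore genes 1 rose and 1 fell. CENPF, a large protein of the outer kinetochore, had 305, 303 and 329 CPM in SO-L1 and 356, 342 and 357 in ASO-L1 (0.17 ± 0.06, adjusted p = 0.0478). CENPE, the kinesin that carries chromosomes to the spindle's middle, fell from 88.1, 77.4 and 90.3 to 73.3, 53.8 and 70.8 CPM (-0.37 ± 0.11, adjusted p = 0.0310), the largest decrease among the 32. No ASO-L1 library reached the control range for CENPE, and ASO-L1 replicate 2 was the lowest. NDC80 and NUF2, partners in the complex that grips microtubules, had log2 differences of 0.21 ± 0.08 (adjusted p = 0.0714) and 0.02 ± 0.08 (0.845), and with the replicate block NDC80 was called higher (0.0278). The call of CENPE was lost without SO-L1 replicate 1 (0.110) or 3 (0.112). That of CENPF was lost without any single library but ASO-L1 replicate 2 (0.0704 to 0.134), with no filter (0.134) and without factors (0.0938).

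Apart from CENPE, the kinesin described above that fell, only KIF2C passed the test among the spindle motors. KIF2C, or MCAK, a kinesin that takes microtubules apart at centromeres, rose from 99.6, 91.2 and 99.4 CPM to 144, 167 and 140.5 (0.64 ± 0.08), with the smallest adjusted p of the 32 genes (0.00143). The gap between the groups was larger than the range within either. KIF11, the motor that pushes spindle poles apart, had 142, 127 and 144 CPM in SO-L1 and 129, 105 and 123 in ASO-L1, values that overlapped (-0.21 ± 0.09, adjusted p = 0.0847). With the replicate block KIF11 was called lower (0.00789), and also with no filter (0.0309) and without replicate 2 of both groups (0.00332). KIF20A and KIF20B, motors of late mitosis, had log2 differences of -0.02 ± 0.07 and -0.11 ± 0.07 and did not pass (adjusted p = 0.844 and 0.285).

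Genes for spindle assembly and microtubule binding were mixed. GTSE1, which stabilises microtubules and restrains p53 after G2, rose from 61.2, 60.8 and 63.0 to 87.3, 106 and 85.0 CPM (0.59 ± 0.09, adjusted p = 0.00214). TPX2, which activates AURKA on the spindle, rose from 364, 318 and 366 to 421, 426 and 419 CPM (0.27 ± 0.07, adjusted p = 0.0125). Neither overlapped between groups. Among the ASO-L1 libraries GTSE1 was highest in replicate 2, while TPX2 was nearly the same in all 3. HMMR, a hyaluronan receptor that also binds spindle microtubules, fell from 103, 85.3 and 99.3 to 82.0, 74.6 and 84.3 CPM (-0.25 ± 0.08, adjusted p = 0.0396). NUSAP1, which bundles microtubules near chromosomes, did not pass (-0.16 ± 0.08, adjusted p = 0.131) but was called lower with the block (0.0327) and without replicate 2 of both groups (0.0449). DLGAP5, a stabiliser of kinetochore fibres, differed by 0.04 ± 0.08 (0.696). The call of HMMR was lost without SO-L1 replicate 1 (0.155) or 3 (0.140) and without ASO-L1 replicate 1 (0.0936) or 2 (0.0610).

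All 3 genes of protein destruction at mitosis rose. CDC20, the activator of the anaphase-promoting complex on which the checkpoint acts, went from 239, 220.1 and 242 CPM to 282, 312 and 289.5 (0.33 ± 0.07, adjusted p = 0.00487). UBE2C, the conjugating enzyme that starts ubiquitin chains for that complex, went from 205, 176 and 186 to 248, 329 and 238 CPM (0.52 ± 0.12, adjusted p = 0.0110). The spread of UBE2C in ASO-L1 came mainly from replicate 2, and the other ASO-L1 libraries still lay above all controls. CDCA3, which helps destroy the CDK1 inhibitor WEE1, went from 32.4, 30.8 and 32.3 to 37.8, 43.5 and 37.8 CPM (0.32 ± 0.08, adjusted p = 0.0155). Leaving out SO-L1 replicate 1 (0.0534) or 3 (0.0580) ended the call of CDCA3.

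The common proliferation markers differed from each other. MKI67, which coats mitotic chromosomes and is the Ki-67 antigen, had 252, 263 and 291 CPM in SO-L1 and 309, 300.3 and 316 in ASO-L1 (0.20 ± 0.07, adjusted p = 0.0445), without overlap. TOP2A, the topoisomerase that untangles sister chromatids, had 388, 335 and 394 CPM in SO-L1 and 387, 331 and 384 in ASO-L1, a log2 difference of -0.02 ± 0.08 (0.877). Each TOP2A library was close to the library of the same number in the other group. ANLN, anillin of the cleavage furrow, rose from 130.1, 132 and 132 to 162, 175 and 150.1 CPM (0.31 ± 0.07, adjusted p = 0.00807). Leaving out 1 library ended the call of MKI67 for SO-L1 replicates 1 (0.154) and 2 (0.110) and for ASO-L1 replicates 1 (0.0948) and 3 (0.122). It was also lost with no filter (0.0667) and without factors (0.0784).

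**Figure D3:**
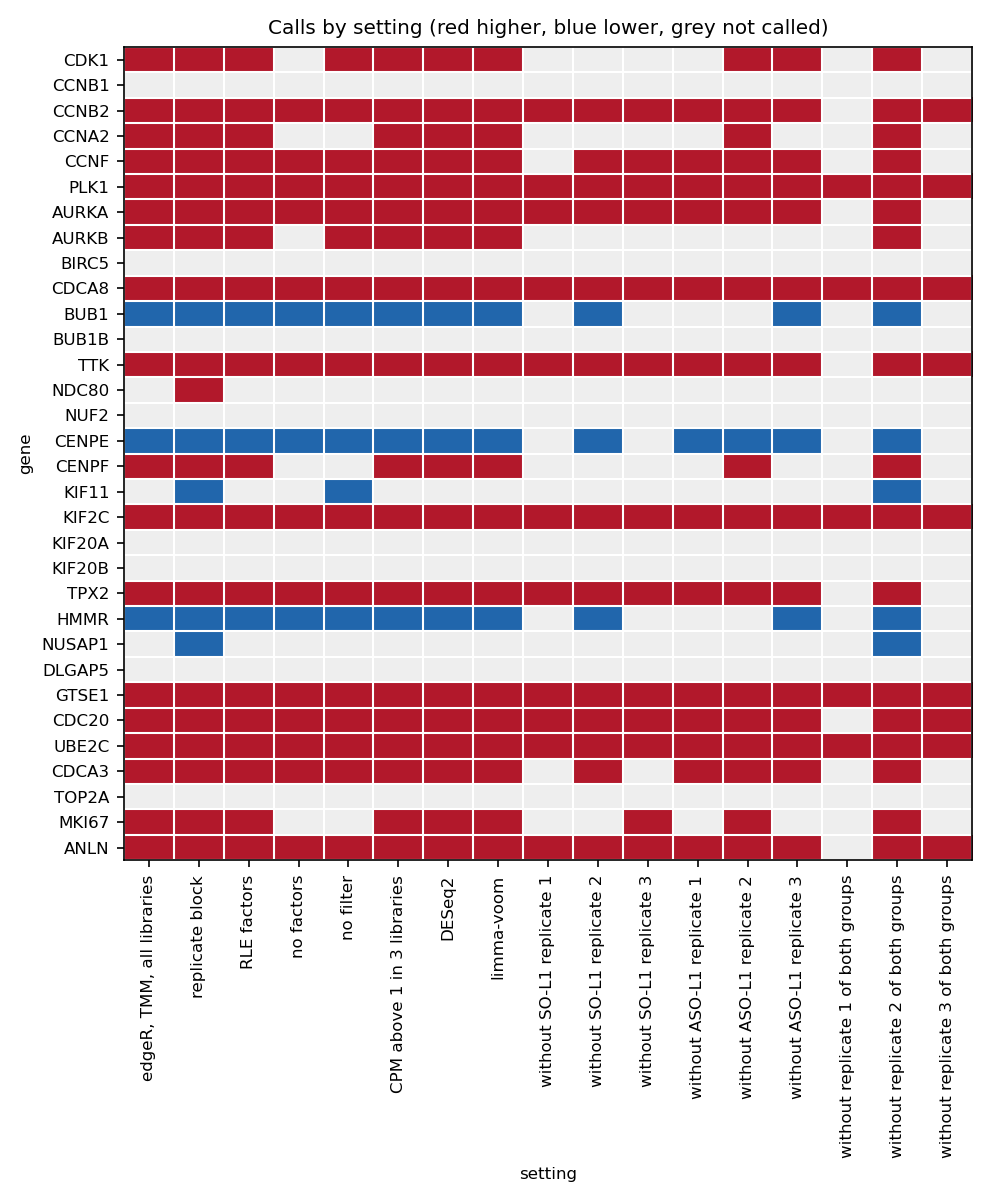
Call of each of the 32 genes (lines) in the test described above and in 16 other settings (columns), with red for higher, blue for lower and grey for not called. PLK1, CDCA8, KIF2C, GTSE1 and UBE2C are red in every column, and no gene is red in some columns and blue in others.

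Of the 18 increases, 11 kept their call whichever single library was left out: CCNB2, PLK1, AURKA, CDCA8, TTK, KIF2C, TPX2, GTSE1, CDC20, UBE2C and ANLN. None of the 3 decreases did. Without SO-L1 replicate 1 there were 11 higher and 0 lower members (10.1% and 8.51% of genes tested then), and 1 was lower at an unadjusted p under 0.05. Without SO-L1 replicate 3 there were 13 and 0 (9.41% and 8.07%), and 2 were lower unadjusted. Without ASO-L1 replicate 1 there were 13 and 1 (15.1% and 10.8%), and without ASO-L1 replicate 2 there were 17 and 1 (14.9% and 13%). Without SO-L1 replicate 2 the counts were 13 and 3 (16.5% and 13.8%), and without ASO-L1 replicate 3 they were 14 and 3 (16.5% and 14.5%). In the authors' deposited table, 13 of the 32 genes were higher and 1, CENPE, was lower at an adjusted p under 0.05, where 11.7% and 9.77% of its 20964 genes were called. The largest log2 fold change among the 32 in the authors' deposited table was again that of CDCA8, at 0.68, and the smallest adjusted p was that of KIF2C, at 0.00294.

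Levels per length differed widely within the set. On exon lengths of GENCODE 29 (GRCh38), which need not be the annotation of the counts, the highest levels in SO-L1 after CCNB1 were 147 CPM per kilobase for UBE2C and 128 for CDC20. The lowest were 7.46 for CDCA3, 9.90 for CENPE and 12.3 for BIRC5. After ASO-L1 the level of UBE2C was 211 CPM per kilobase and that of CCNB1 178. The increases thus covered genes from the bottom of this range, such as CDCA3, to near its top.

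The fold changes went with base composition, a feature looked at, with transcript and gene length, after the values were seen. The share of G and C bases in the longest coding transcript had a median of 49.1% in the 18 genes that rose, 36.7% in the 3 that fell and 40.1% in the 11 others. Over the 32 genes Spearman's correlation between this share and the log2 fold change was 0.64 (Pearson's r 0.62), and Spearman's value was 0.57, 0.67 and 0.63 for the differences within replicate numbers 1, 2 and 3. Among 13579 other tested coding genes Spearman's correlation was 0.045, and among 151 genes of 6 wider G2 and mitosis lists it was 0.094. For transcript length Spearman's correlation with the log2 fold change was -0.38 over the 32 genes and -0.094 over the 13579 others. For gene length it was -0.44 over the 32 genes and -0.237 over the 13579 others. These are descriptions across genes measured in the same 6 libraries, and genes are not independent replicates. The part of base composition or of length in the result was not tested.

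**Figure D4:**
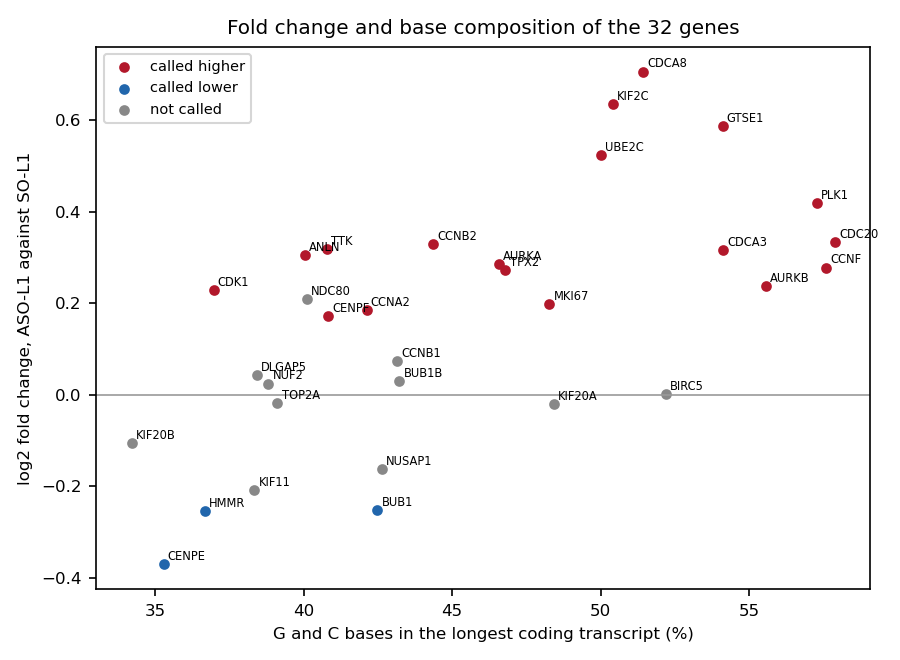
Log2 fold change of each of the 32 genes (vertical axis) against the percentage of G and C bases in its longest coding GENCODE 29 transcript (horizontal axis), red for called higher, blue for called lower and grey for not called. The 3 genes that fell lie between 35.3% and 42.5%, and the increases extend from 37.0% to 57.9%.

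Both promoter elements were found among the genes that rose, those that fell and the others. TTTGAA or TTCGAA was present in 11 of the 14 increases with a sequence, 2 of the 3 decreases and 8 of the 10 others. CCAAT was present in 12, 2 and 7 of them. KIF2C, which rose, and CENPE, which fell, had none of the searched strings in the whole window of 300 bases. A match is a string of letters and not a shown binding site. Its absence concerns this window and these strings alone, and other forms of the cell cycle homology region were not searched.

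In addition, 8 lists of cell cycle genes that share no gene with the 32 were read from the same fit. Of their 201 tested genes 70 were higher (34.8%) and 28 lower (13.9%), against 18.0% and 15.7% of all tested genes, with a median log2 fold change of 0.07. Among 17 genes of G2 entry control 7 rose and 2 fell. CKS2 and CKS1B, small partners of CDK1, rose by 1.02 ± 0.16 and 0.56 ± 0.10 on the log2 scale (adjusted p = 0.00388 and 0.00360). WEE1, the kinase that inhibits CDK1, rose by 0.43 ± 0.08 (0.00417), and CDC25A, a phosphatase that reverses WEE1's mark, by 0.33 ± 0.06 (0.00472). The 2 that fell also act for CDK1, and they are named after their values were seen: CDC25B, a phosphatase of the same family as CDC25A (-0.32 ± 0.09, 0.0183), and CCNH, the cyclin of the kinase that activates CDK1 (-0.26 ± 0.09, 0.0493).

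Of 16 genes for factors that bind these promoters 7 rose and 5 fell. They include activators and also E2F4, E2F5, RBL1 and RBL2, which with MuvB repress the set. Of these 4, E2F4 rose (0.19 ± 0.06, adjusted p = 0.0377) and RBL2 fell (-0.42 ± 0.11, 0.0178), both named after their values were seen. MYBL2, which encodes B-MYB, went from 626 ± 15.7 to 870.5 ± 103 CPM (mean ± SD, n = 3), a log2 fold change of 0.48 ± 0.08 (adjusted p = 0.00316), and FOXM1 from 138 ± 3.60 to 172 ± 10.9 CPM (0.32 ± 0.07, 0.00536). The MuvB subunits went apart, LIN54, which reads the TTTGAA element, rising by 0.69 ± 0.12 (0.00333) and LIN52 at -0.50 ± 0.11 (0.00634). LIN9 rose (0.25 ± 0.09, adjusted p = 0.0484) and RBBP4 fell (-0.24 ± 0.07, 0.0216). LIN37, at a mean of 0.456 CPM in SO-L1, did not pass (-0.03 ± 0.41, 0.958). Of the NF-Y subunits NFYB (0.26 ± 0.07, adjusted p = 0.0193) and NFYC (0.32 ± 0.09, 0.0181) rose, and NFYA fell (-0.23 ± 0.07, 0.0329). These subunits, too, are named after their values were seen. The list's median was 0.02.

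Among 41 other kinetochore and checkpoint genes 15 rose and 4 fell. The smallest p-values were those of CENPO (0.62 ± 0.07), SKA1 (0.77 ± 0.09), CENPL (0.80 ± 0.11) and HJURP (0.48 ± 0.08), the last a chaperone that loads the centromeric histone. Their adjusted p-values ran from 0.00122 to 0.00291. Of 38 other spindle, centrosome and cytokinesis genes 11 rose and 3 fell. CEP55 (0.78 ± 0.10) and RACGAP1 (0.58 ± 0.08), both needed to finish cytokinesis, TROAP (0.72 ± 0.10) and CKAP2 (0.53 ± 0.09) had the smallest p-values (adjusted p from 0.00145 to 0.00252). In condensin and cohesin 8 of 21 rose and 3 fell, with a median of -0.02. The smallest p-values were those of CDCA5, or sororin, which holds sister chromatids together (0.71 ± 0.08, adjusted p = 0.00121), and of 3 other increases. They were the cohesin acetyltransferase gene ESCO2 (0.72 ± 0.11), the cohesin subunit gene SMC3 (0.39 ± 0.06) and the condensin gene NCAPG (0.44 ± 0.07). The 3 decreases were SMC1A (-0.39 ± 0.11, adjusted p = 0.0262), STAG1 (-0.36 ± 0.09, 0.0114) and PDS5B (-0.41 ± 0.08, 0.00528), named after their values were seen.

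Of 18 genes of the anaphase-promoting complex and of separase 1 rose and 5 fell, with a median of -0.09. CDC16 went from 184 ± 12.9 to 118 ± 21.9 CPM (mean ± SD, n = 3), a log2 fold change of -0.64 ± 0.13 (adjusted p = 0.00637). ANAPC1 (-0.52 ± 0.10) and ANAPC16 (-0.45 ± 0.08) fell too, and CDC23 rose by 0.46 ± 0.08. With the block 4 of the 18 were higher and 6 lower, where 23.3% and 22.5% of all tested genes were called. The activator CDC20 and the enzyme UBE2C, which work with this complex, were among the increases described above.

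In G1/S and replication 15 of 35 genes rose and 3 fell, with a median of 0.11. The E2F factors E2F8 (1.06 ± 0.12, adjusted p = 0.00117) and E2F1 (0.68 ± 0.08, 0.00135), the histone mRNA binding protein gene SLBP (0.57 ± 0.09, 0.00249) and the origin factor gene MCM10 (0.37 ± 0.06, 0.00316) had the smallest p-values. Of 15 G1 cyclins, G1 kinases and CDK inhibitors 6 rose and 3 fell. CCND1, the D-type cyclin of the G1 kinases, fell from 217 ± 10.2 to 147 ± 17.3 CPM (-0.57 ± 0.09, 0.00219), and CDK2 rose by 0.61 ± 0.11 (0.00366). The CDK4 and CDK6 inhibitor genes CDKN2C and CDKN2D rose, CDKN2C, at a low level, from 0.199 ± 0.0881 to 1.88 ± 1.49 CPM (3.20 ± 0.66, 0.00763, and 2.35 without ASO-L1 replicate 2) and CDKN2D from 5.53 ± 0.700 to 9.93 ± 1.92 CPM (0.84 ± 0.16, 0.00457). No test compared these lists with the 32 genes.

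**Figure D5:**
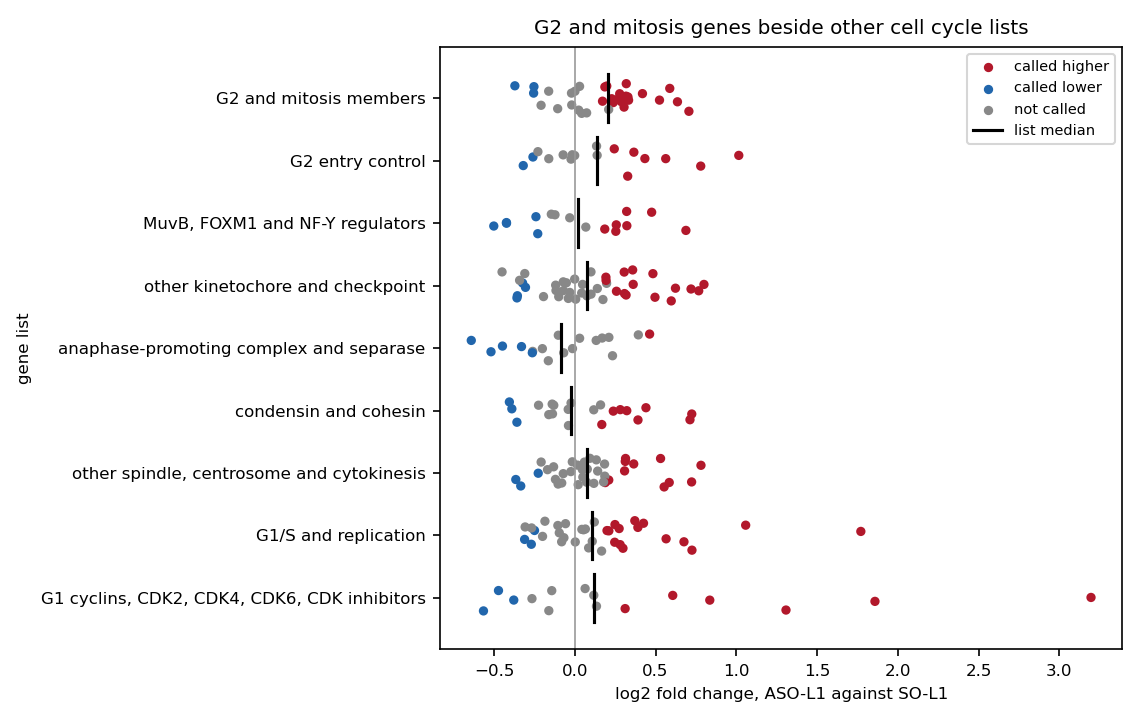
Log2 fold change of every tested gene (points) of the 32 G2 and mitosis genes and of 8 other cell cycle lists, red for called higher, blue for called lower and grey for not called, with black bars at list medians. The median is 0.20 for the 32 genes and -0.09 for the anaphase-promoting complex and separase.

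Markers of cell identity moved with the groups as well, and their counts stand against 18.0% of all tested genes higher and 15.7% lower. Of 10 pluripotent stem cell markers edgeR called 0, with 3 lower at an unadjusted p under 0.05, while DESeq2 called 2 lower and limma-voom 1. Their summed level was 8884 to 10107 CPM in SO-L1 and 7150 to 8944 in ASO-L1. Adding the replicate block made 5 of these 10 markers lower, where it called 22.5% of all tested genes lower. Naive markers summed to 413 to 438 CPM in SO-L1 and 354 to 365 in ASO-L1, with 2 of 11 higher and 5 lower, and primed markers to 581 to 602 and 760 to 839, with 4 of 8 higher. Fibroblast markers summed to 529 to 596 and 633 to 731 CPM with 4 of 11 higher, trophectoderm markers to 303 to 322 and 340 to 384 with 3 of 8 higher, and primitive endoderm markers to 112 to 120 and 114 to 117 with 3 of 7 higher. No marker in the table was at 0 in all 6 libraries. The part of these markers' cells in the result was not tested.

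Some counts depend on how reads were assigned, which is not given in the sources used here. In GENCODE 29 exons of CCNA2, CCNF, PLK1, KIF2C, KIF20A, HMMR, CDCA3 and ANLN overlap a gene on the opposite strand, by at most 7.71% of the member's exon length, and whether counting used strand is not stated. NUSAP1 shares 72.8% of its exon length with a further coding gene model on its own strand, and BUB1B shares 4.57%. The pseudogene line CDC20P1 held 895 reads over the 6 libraries, and lines for 4 UBE2C pseudogenes held at most 11.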

How the data were processed

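Poly(A) RNA was sequenced from 6 libraries of a directional kit. The deposited counts are raw read counts per gene symbol. Per the submitters' processing notes, the tools were TopHat2 2.0.13, Trim Galore 0.4.0, Subread 1.5.0 and featureCounts, with the build hg19; per the file headers and name, duplicates were removed, which without molecular identifiers lowers abundant genes most. The annotation is not given in the sources used here. The authors' deposited comparison table holds log2 fold changes, p-values, a moderated t score and a log-odds score; its model is not stated.

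All tests used these counts. The filter filterByExpr of edgeR 4.0.16 (minimum count 10, minimum total 15) left 16873 of 53712 genes, and factors were TMM. The test was the robust quasi-likelihood test without a block, two-sided, adjusted over all tested genes, and each standard error was derived from the log2 fold change and its F statistic. An exact permutation test of 3 against 3 cannot give a p below 0.1. For the block, the differences within numbers and leaving out a number of both groups, replicate numbers were taken as pairs. The labels do not state such pairs. Deviations from group means correlated by 0.10, 0.38 and 0.21 at numbers 1, 2 and 3. Library 1 of each group correlated more with library 3 of the other (0.16 both), but library 3 of each group correlated most with its own number (0.21). These values therefore do not settle how numbers 1 and 3 pair. No replicates were alike within sampling noise (chi-square per degree of freedom from 2.05 to 24.4). Members and lists were chosen with earlier results of these data known. All members are named; values per library are given for called members, CDK1, CCNB1, TOP2A, MKI67 and the extremes, with some others added, and up to 4 called genes with the smallest p for each wider list. Alternatives were the block, other factors and filters, DESeq2 1.42.0, limma-voom (limma 3.58.1) and leaving out libraries. A further deposited table of batch-corrected values was not used here.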

Additional observations from a re-analysis of the deposited data

How the results depend on the processing

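All 32 genes kept their direction and their side of the threshold with RLE factors, a CPM above 1 in 3 libraries, DESeq2 and limma-voom. No called gene changed direction in any of the 16 alternatives, and PLK1, CDCA8, KIF2C, GTSE1 and UBE2C were called in all of them. With the replicate block 5 rather than 3 members were lower, NDC80, KIF11 and NUSAP1 were gained, and no call of a member was lost. Leaving out single libraries gave 11 to 17 members higher and 0 to 3 lower, 47 to 66 wider-list genes higher and 10 to 26 lower, and 1601 to 2903 genes higher and 1374 to 2456 lower over all tested genes. Leaving out a number of both groups, which leaves 2 libraries a group, gave for replicate 1 5 members higher and 0 lower, 30 and 3 wider-list genes, and 757 and 426 of all genes. For replicate 2 it gave 18 and 5, 70 and 42, and 3726 and 3471, and for replicate 3 it gave 9 and 0, 40 and 12, and 1611 and 1209. The median of the members lay between 0.15 and 0.25 in all alternatives. Differences near 0 changed sign among uncalled genes. Without factors BIRC5 was at -0.0321, BUB1B at -0.00397 and NUF2 at -0.00908, and with no filter BIRC5 was at -0.0126. Without replicate 2 of both groups BIRC5 was at -0.0533, NUF2 at -0.00129 and DLGAP5 at -0.0193. Without single libraries the ranges were -0.0921 to 0.0833 for BIRC5, -0.0223 to 0.0653 for BUB1B, -0.0360 to 0.0769 for NUF2, -0.0433 to 0.0868 for DLGAP5, -0.0735 to 0.0224 for KIF20A and -0.0954 to 0.04999 for TOP2A. The cause of these changes was not tested. Counts of single wider lists moved by over 1.5 times in places. Over all settings that leave out libraries, the increases numbered 2 to 8 for G2 entry control (7 with all libraries), 2 to 6 for the transcription factors (7), 7 to 16 for kinetochore and checkpoint (15), 5 to 11 for spindle and cytokinesis (11), 4 to 8 for condensin and cohesin (8), 8 to 15 for replication (15), 2 to 6 for the G1 list (6) and 0 to 2 for the anaphase-promoting complex (1). The decreases numbered 0 to 2 (2), 0 to 5 (5), 0 to 5 (4), 0 to 7 (3), 0 to 5 (3), 0 to 6 (3), 1 to 5 (3) and 1 to 7 (5) for the same lists. Over all tested genes the same settings called 757 to 3726 genes higher (3031 with all libraries) and 426 to 3471 lower (2653).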
